A study of Homo sapiens with 4 samples.

Results

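LEPR encodes the leptin receptor and LEPROT the leptin receptor overlapping transcript protein, and the neighbouring genes are transcribed from the plus strand of chromosome 1. The locus was taken as the hg19 window chr1:65886000-66108000 on that strand. Read 3′ ends before 65902500 were assigned to LEPROT and later ones to LEPR. The locus was chosen by measured values, since the reads of the LEPR sites at 66101111 and 66102008 exchanged places after CF Im 68 siRNA. That contrast is therefore described without a test. The window held 146 single-nucleotide end positions, which formed 82 clusters. Of these, 5 reached a mean of 1 RPM (the usual scaling of reads to library size), the level required of the 33723 sites of the whole series.

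The libraries came from HEK293, an established human line of embryonic kidney origin, grown in DMEM with FCS. The 4 groups, of 1 library each, received siRNA against CF Im 68, siRNA against CstF-64, a scrambled control siRNA or no siRNA, and siRNA-treated cells were harvested after 3 days. A-seq sequences the 3′ ends of polyadenylated RNA, so that a read marks where a transcript was cleaved and polyadenylated. With no replicate in any group, the spread between cultures is unknown, and the difference between the libraries with control siRNA and with no siRNA is given as background. The libraries held 7343112 to 15806975 reads, the fewest with CstF-64 siRNA.

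The siRNA strands given in the labels are printed here because they are what distinguishes the libraries with siRNA against CF Im 68 and against CstF-64. Each is written 5′ to 3′ without its 2 unspecified leading bases.
CF Im 68 siRNA: gaccgagauuacauggaua
CstF-64 siRNA: ccugaaugggcgcgaauuc

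Most human pre-mRNAs can be cleaved at more than 1 poly(A) site. CF Im 68 belongs to cleavage factor I, whose UGUA contacts lie upstream of the cut. CstF-64 is the part of the cleavage stimulation factor that contacts U- and GU-rich RNA behind the cut. The leptin receptor is a cytokine receptor that senses the adipose hormone leptin and is best known for its part in appetite control in the hypothalamus. It is made in a long form that signals through JAK2 and STAT3 and in short forms with other cytoplasmic tails, which arise from alternative last exons. Which of these forms ends at either LEPR site was not determined here. LEPROT is a small membrane protein of the endosomal pathway that shares the start of its transcript with LEPR but encodes an unrelated protein. A transcript from that start can end at the LEPROT sites or continue into LEPR, whose ends lie far downstream.

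The common start was visible in the RefSeq promoter sequences of GRCh38.p14, which list 2 promoter windows for LEPR and 1 for LEPROT. The LEPROT window was identical over its 300 bases to 1 of the LEPR windows, and the other LEPR window shared 284 bases with it. The last 30 bases before that common annotated start, on the plus strand of chromosome 1, are shown because reads of both genes can arise behind them.
LEPROT and LEPR start: ccgcggggcgactcccggtctggcttgggc

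The distal LEPR site at 66102008 differed most between libraries among the 5 named sites of the locus. It had 246 reads after CF Im 68 siRNA, 16 with CstF-64 siRNA, 25 after control siRNA and 17 without siRNA. Scaled to library size, these were 19.2, 2.18, 1.86 and 1.08 RPM in the same order. The CF Im 68 library therefore stood alone, and the other 3 libraries lay close together. The RPM after CF Im 68 siRNA was 10.3 times that after control siRNA (exact 95% interval 6.84 to 16.3) and 17.9 times that without siRNA (10.9 to 31.2). These intervals, from the conditional binomial distribution of 2 counts, cover counting error only, as do all others given here. They would be too narrow where copies of 1 fragment were read several times.

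The proximal LEPR site at 66101111, 897 nt upstream, went the other way. It had 47 reads after CF Im 68 siRNA, 41 with CstF-64 siRNA, 135 after control siRNA and 91 without siRNA. The corresponding RPM values were 3.67, 5.58, 10.0 and 5.76. The CF Im 68 library had the lowest value, but the libraries with control siRNA and with no siRNA also differed from each other, by a ratio of 1.74 (1.33 to 2.30). The RPM after CF Im 68 siRNA was 0.366 times that after control siRNA (0.257 to 0.513) and 0.638 times that without siRNA (0.439 to 0.917). No read ended in the 846 nt between the reach of the clusters around the LEPR sites, in any library.

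**Figure D1:**
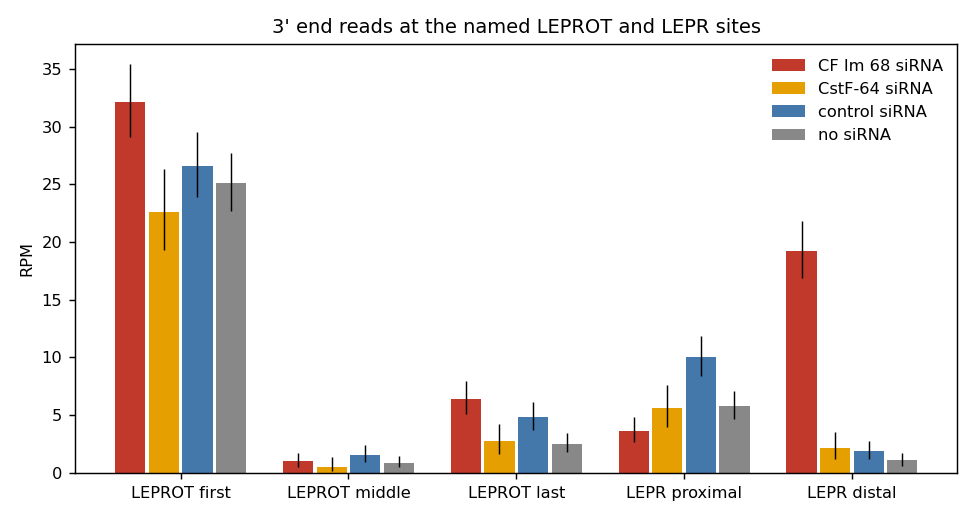
RPM at the 5 named sites, as bars for each library with exact Poisson 95% intervals of counting error, from CF Im 68 siRNA on the left to no siRNA on the right of each set. The distal LEPR site reached 19.2 RPM after CF Im 68 siRNA and 1.08 to 2.18 RPM in the other libraries.

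As a share of the reads of this pair, the proximal LEPR site had 16.0% after CF Im 68 siRNA (exact Clopper-Pearson 95% interval 12.0 to 20.8, 293 reads). It had 71.9% with CstF-64 siRNA (58.5 to 83.0, 57 reads), 84.4% after control siRNA (77.8 to 89.6, 160 reads) and 84.3% without siRNA (76.0 to 90.6, 108 reads). The leading site of LEPR was thus the distal one after CF Im 68 siRNA and the proximal one in every other library. The share after CF Im 68 siRNA differed by -68.3 points from that after control siRNA (Newcombe 95% interval -74.4 to -60.4) and by -68.2 points from that without siRNA (-75.0 to -58.9).

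These differences were at rank 2 from the lowest, against either control library, among the 4793 loci in which a pair of sites had at least 50 reads in every library. Over all 4793 loci the median difference was 4.84 points against control siRNA, toward the proximal site, with a 5th percentile of -10.1 points. Counted by a lower proximal share at adjusted p below 0.05 (two-sided Fisher's exact test on the pair reads, Benjamini-Hochberg adjustment) and at least 10 points, 207 of the 4793 loci (4.32%) were called against control siRNA, and 1466 (30.6%) by a higher share. Since the LEPR pair was selected for this contrast, nothing is read from its place among them.

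**Figure D2:**
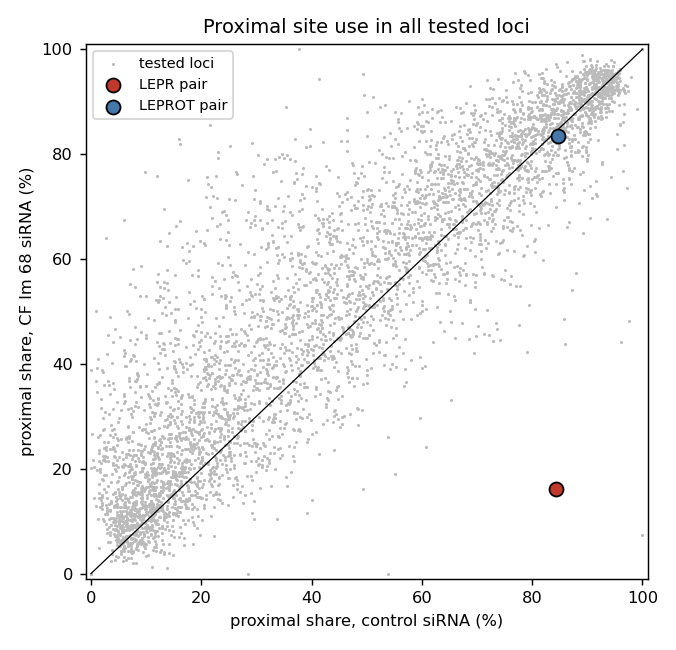
Proximal share of pair reads after CF Im 68 siRNA (vertical axis, %) against that after control siRNA (horizontal axis, %), with 1 point for each of 4793 tested loci and a line of equal shares. The LEPR pair lies at 16.0% and 84.4%, far below the line, and the LEPROT pair at 83.4% and 84.6%, close to it.

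CstF-64 siRNA gave a lower proximal share at LEPR than either control library, but the difference did not pass the test. The share was lower by 12.4 points than after control siRNA (Newcombe interval -26.1 to -0.567). Fisher's exact test, which compares the 2 libraries and not the conditions, gave an unadjusted two-sided p of 0.0489 and an adjusted p of 0.138 over all 4793 loci. Against no siRNA the difference was -12.3 points (-26.3 to 0.487) with an adjusted p of 0.121 in the same exact test. In the comparison with control siRNA, 5.28% of the 4793 loci had a called lower share and 10.6% a called higher one. Against no siRNA these were 13.4% and 19.0%. The 57 pair reads with CstF-64 siRNA set the width of these intervals, and a difference of -26.1 points was still within the first of them. The libraries with control siRNA and with no siRNA differed by 0.116 points at LEPR (-8.46 to 9.48, adjusted p = 1 by the exact test), where 10.6% of all loci had a called higher and 11.1% a called lower share.

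**Figure D3:**
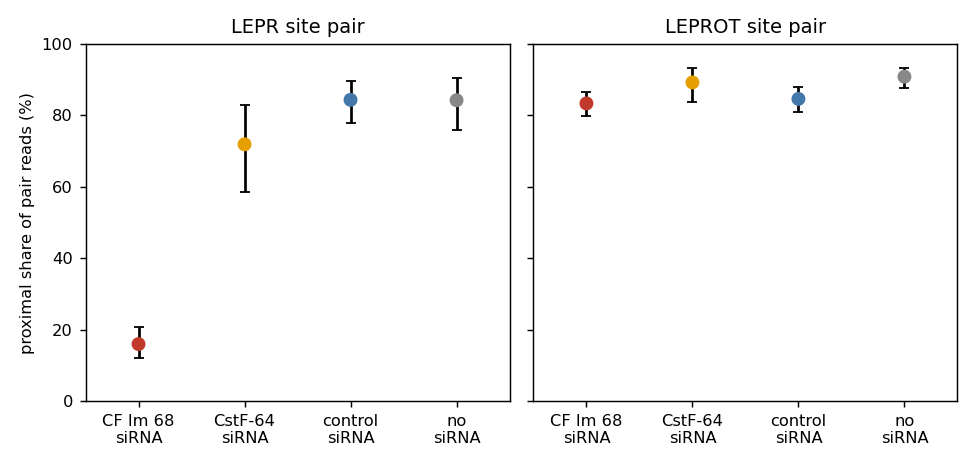
Proximal share of pair reads (%) at the LEPR and the LEPROT pair in each library, with exact Clopper-Pearson 95% intervals of counting error. At LEPR the CF Im 68 library is at 16.0% and the others at 71.9 to 84.4%, and at LEPROT the libraries lie between 83.4 and 90.8%.

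The exchange at LEPR lay between the sites, and the same position led within each site in every library. At the distal site, the leading position 66102008 held 184 of 246 reads after CF Im 68 siRNA (74.8%, 68.9 to 80.1). It held 14 of 16 with CstF-64 siRNA (87.5%, 61.7 to 98.4), 18 of 25 after control siRNA (72%, 50.6 to 87.9) and 12 of 17 without siRNA (70.6%, 44.0 to 89.7). The next position in use, 66102011, held 60 reads after CF Im 68 siRNA, 1 with CstF-64 siRNA, 7 after control siRNA and 4 without siRNA. The same positions were therefore cut when the site was little used and when it was the main site, and the intervals of the leading share overlapped in all libraries. With 16 to 25 distal reads in the other libraries, these intervals were wide, and a shift of many points within the site could have been missed. At the proximal site, position 66101111 held 74.5% of the reads after CF Im 68 siRNA (59.7 to 86.1), 85.4% with CstF-64 siRNA, 83.0% after control siRNA and 74.7% without siRNA. Position 66101109 was the second in use there, with 11, 4, 19 and 17 reads in the same order.

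**Figure D4:**
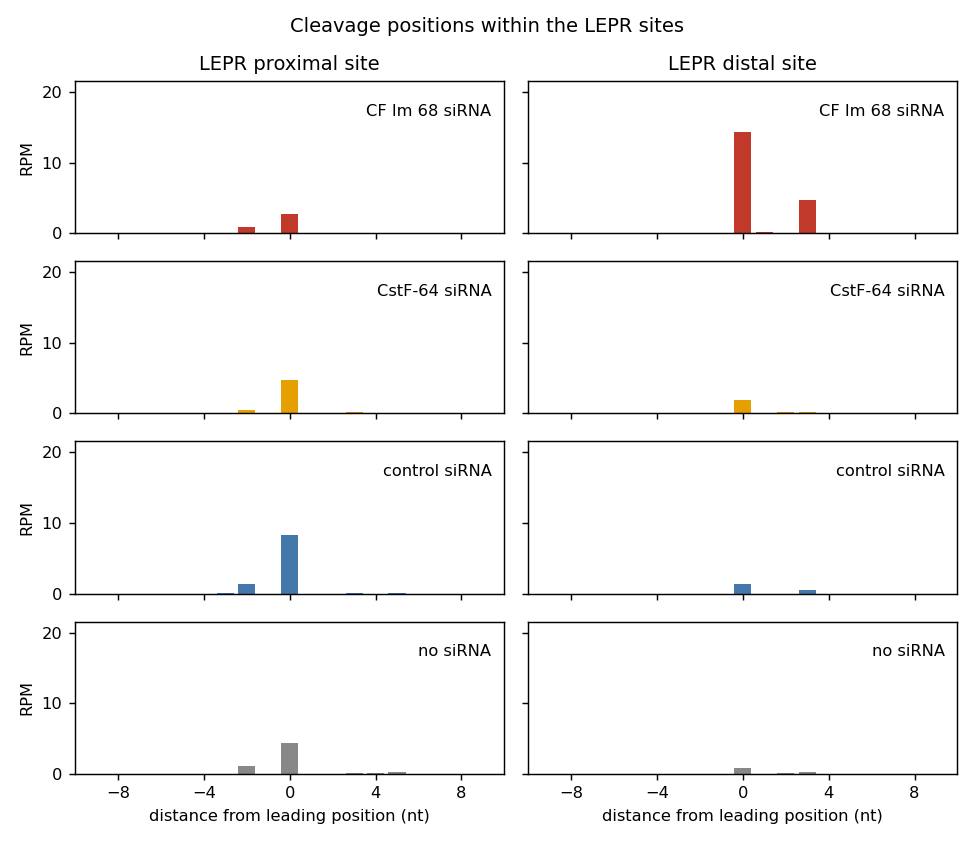
RPM at each end position within the proximal and the distal LEPR site, by distance in nt from the leading position, with 1 row for each library and 1 vertical scale for all panels. The leading distal position reached 14.4 RPM after CF Im 68 siRNA and 0.759 to 1.91 RPM in the other libraries, with the position 3 nt downstream next in use after CF Im 68 siRNA.

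LEPROT had 3 sites of at least 1 RPM, at 65899486, 65899971 and 65901689. The first held most of the LEPROT reads in every library, with 411 reads after CF Im 68 siRNA, 166 with CstF-64 siRNA, 358 after control siRNA and 397 without siRNA, or 32.1, 22.6, 26.6 and 25.1 RPM. Position 65899486 alone held 93.4 to 95.1% of its reads in each library. Its highest and lowest libraries, those with CF Im 68 and CstF-64 siRNA, lay on either side of the others. The RPM ratio of CF Im 68 to control siRNA was 1.21 (1.04 to 1.39).

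The last LEPROT site, 2203 nt downstream of the first, had 82 reads after CF Im 68 siRNA, 20 with CstF-64 siRNA, 65 after control siRNA and 40 without siRNA. Its RPM values of 6.41, 2.72, 4.84 and 2.53 put the CF Im 68 and control siRNA libraries above the other 2. The ratio of CF Im 68 to control siRNA was 1.33 (0.946 to 1.86) and that to no siRNA 2.53 (1.72 to 3.80). Control siRNA against no siRNA gave 1.91 (1.27 to 2.91), so that the control libraries were themselves apart at this site. The middle site at 65899971 was weak, with 13, 4, 21 and 14 reads in the order CF Im 68, CstF-64, control and no siRNA.

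The pair of the first and the last LEPROT site showed no exchange like that of LEPR. The proximal share was 83.4% after CF Im 68 siRNA (79.8 to 86.5), 89.2% with CstF-64 siRNA (83.9 to 93.3), 84.6% after control siRNA (80.8 to 87.9) and 90.8% without siRNA (87.7 to 93.4). The difference of CF Im 68 from control siRNA was -1.27 points (-5.99 to 3.55), and that from no siRNA was -7.48 points (-11.7 to -3.17). The LEPROT pair thus lay within the range of the control libraries with CstF-64 siRNA and 1.27 points below its lower end after CF Im 68 siRNA. For CstF-64 siRNA, Fisher's exact test gave an adjusted p of 0.329 against control siRNA, with a difference of 4.61 points (-1.51 to 9.87), and 0.660 against no siRNA, with -1.60 points (-7.38 to 3.20). Control siRNA against no siRNA differed by -6.21 points (-10.6 to -1.83) with an adjusted p of 0.0191 in this exact test, below the 10 points asked of a call.

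Summed over all ends, LEPR had 359 reads after CF Im 68 siRNA, 74 with CstF-64 siRNA, 197 after control siRNA and 133 without siRNA, or 28.1, 10.1, 14.7 and 8.41 RPM. The CF Im 68 library was the highest and the no siRNA library the lowest. The RPM ratio was 1.92 for CF Im 68 over control siRNA (1.61 to 2.29) and 3.34 over no siRNA (2.73 to 4.10). Control over no siRNA gave 1.74 (1.39 to 2.19), so that the background was itself wide. The distal site, whose reads chose the locus, made up 246 of the 359 reads after CF Im 68 siRNA. The higher total therefore restates that choice in large part, and nothing is read from it. The ratio of control to no siRNA was 1.74 at the proximal site (1.33 to 2.30) and 1.73 at the distal site. The distal ratio rested on 25 and 17 reads, and its interval of 0.897 to 3.41 was wide. The proximal share of the pair was the same in both libraries within 0.116 points. In such bulk samples, a change in the number of cells that express a gene and one in its RNA per cell cannot be told apart.

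After CstF-64 siRNA the LEPR total was 0.688 times that after control siRNA (0.519 to 0.903) and 1.20 times that without siRNA (0.889 to 1.60), so that its direction depended on the control library. The median log2 ratio of RPM plus 1 over all 17877 loci with at least 50 reads was -0.19 for CstF-64 over control siRNA, against -0.50 for LEPR and -0.40 for LEPROT. For CF Im 68 over control siRNA the median over all loci was 0.02, against 0.89 for LEPR and 0.31 for LEPROT. The medians sum only sites of at least 1 RPM, whereas these LEPR and LEPROT values sum every end. With such sites only, CstF-64 over control siRNA gave -0.56 for LEPR and -0.34 for LEPROT. CF Im 68 over control siRNA then gave 0.89 for LEPR and 0.25 for LEPROT. At least 2-fold higher totals on this scale were found in 6.2% of these loci for CF Im 68 over control siRNA and in 12.9% over no siRNA. LEPR passed 2-fold over no siRNA, with a log2 ratio of 1.63, and not over control siRNA, and LEPROT passed neither. The LEPR total includes the distal site that chose the locus, so its pass over no siRNA is not a separate result.

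The LEPROT total was 564 reads after CF Im 68 siRNA, 195 with CstF-64 siRNA, 475 after control siRNA and 469 without siRNA, or 44.1, 26.6, 35.3 and 29.7 RPM. The libraries covered a narrower range than for LEPR. The ratio of CF Im 68 to control siRNA was 1.25 (1.10 to 1.41), and that of control to no siRNA 1.19 (1.05 to 1.36).

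LEPR took 38.9% of the reads of the locus after CF Im 68 siRNA (35.7 to 42.1), 27.5% with CstF-64 siRNA (22.3 to 33.3), 29.3% after control siRNA (25.9 to 32.9) and 22.1% without siRNA (18.8 to 25.6). LEPROT held the rest and remained the more abundant end in every library. The LEPR share was highest after CF Im 68 siRNA, where the distal site, whose reads chose the locus, made up 246 of the 359 LEPR reads. Control and no siRNA differed by 7.22 points (two-sided Fisher's exact test of these 2 libraries, unadjusted p = 0.00391). CstF-64 and control siRNA differed by -1.81 points (exact p = 0.633), and CstF-64 and no siRNA by 5.42 points (exact p = 0.0855). 

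**Figure D5:**
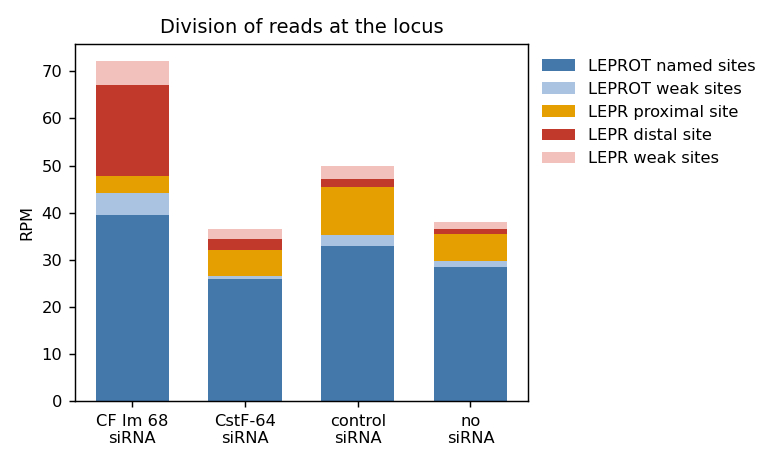
RPM of the locus in each library, stacked by the named LEPROT sites, the weak LEPROT sites under 1 RPM, the proximal and distal LEPR sites and the weak LEPR sites. The distal LEPR site makes up 19.2 RPM after CF Im 68 siRNA and at most 2.18 RPM in the other libraries.

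The remaining 77 clusters of the locus had a mean under 1 RPM, and 50 of them held a single read over all libraries. The 25 weak LEPROT sites had 58 reads after CF Im 68 siRNA, 5 with CstF-64 siRNA, 31 after control siRNA and 18 without siRNA, which was 10.3%, 2.56%, 6.53% and 3.84% of the LEPROT reads. Most lay upstream of the first LEPROT site, where 55 reads ended after CF Im 68 siRNA, 4 with CstF-64 siRNA, 26 after control siRNA and 18 without siRNA, or 4.30, 0.545, 1.93 and 1.14 RPM. The CF Im 68 library was the highest there and the CstF-64 library the lowest. The weak LEPR sites held a like share of LEPR reads in all libraries. It was 18.4% after CF Im 68 siRNA, 23.0% with CstF-64 siRNA, 18.8% after control siRNA and 18.8% without siRNA. In RPM these sites had 5.16, 2.32, 2.75 and 1.58 in the same order, again highest after CF Im 68 siRNA.

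A few of these weak sites, singled out after their values were seen, followed the CF Im 68 library. A site at 66102816, 808 nt beyond the distal LEPR site, had 14 reads after CF Im 68 siRNA, 2 with CstF-64 siRNA, 3 after control siRNA and 0 without siRNA, where 3 reads would be 0.190 RPM. Its RPM after CF Im 68 siRNA was 4.90 times that after control siRNA (1.37 to 26.6). In the 10 kb before the proximal LEPR site, 24 reads ended after CF Im 68 siRNA, 3 with CstF-64 siRNA, 11 after control siRNA and 6 without siRNA. The clusters at 66099109 and 66099168 each had 9 of these reads after CF Im 68 siRNA, 0 with CstF-64 siRNA, 1 after control siRNA and 0 without siRNA. Upstream of the first LEPROT site, the cluster at 65897644 had 12 reads after CF Im 68 siRNA, 0 with CstF-64 siRNA, 2 after control siRNA and 0 without siRNA. Whether such reads started at A-rich stretches within transcripts, as oligo-dT primers can, was not tested.

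The long stretch of LEPR more than 10 kb before the proximal site, 188611 nt in length, had few ends, with 28 reads after CF Im 68 siRNA, 10 with CstF-64 siRNA, 21 after control siRNA and 18 without siRNA, or 2.19, 1.36, 1.56 and 1.14 RPM. Within it, the best-covered cluster at 65992297 had 8, 3, 5 and 7 reads in the same order. Around the boundary between the genes, the last end before it was 1 read at 65902232 and the first after it 1 read at 65908267. The opposite strand of the window held 47 positions of at most 3 reads each, with 14 reads after CF Im 68 siRNA, 6 with CstF-64 siRNA, 20 after control siRNA and 10 without siRNA.

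Among loci with sites about as far apart as those of LEPR, lower proximal shares were about as frequent as over all loci. Of 676 loci with sites over 500 and up to 1000 nt apart, 14 (2.07%) had a lower proximal share after CF Im 68 siRNA by the test against control siRNA and by at least 10 points against each control library, and 188 (27.8%) a higher one. Over all 4793 loci the same rule gave 126 lower (2.63%) and 1161 higher (24.2%). Of 890 loci that, like LEPR, had at least 75% proximal use in both control libraries, 43 (4.83%) had a lower and 17 (1.91%) a higher share. Of the 117 loci in both classes, 4 had a lower and 2 a higher share. A proximal share of at least 75% limited the room for a 10-point rise, and the highest shares in the control libraries left none. Those libraries also enter the difference, so the counts of this class do not show that its loci tend to shift distally.

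In 25 of the 126 loci the distal site was at least 2-fold higher in RPM plus 1 than in each control library, and in 9 of these the proximal site was also lower in RPM than in each. LEPR was 1 of these 9 loci, which made up 0.188% of all tested loci. The locus was chosen by this exchange, so its membership was fixed in advance. The values and ranks of LEPR that follow rest on the same reads, and nothing is read from them. At the distal LEPR site, log2 ratios were 2.82 over control siRNA and 3.28 over no siRNA. They compared with 1.02 to 3.81 and 1.14 to 3.48 over the 9. The LEPR pair total had the highest log2 ratios of the 9, with 0.89 over control siRNA and 1.61 over no siRNA. The others had at most 0.83 and 0.997. Of all 33723 sites, the distal LEPR site ranked 275 for its ratio of CF Im 68 to control siRNA and 166 for that to no siRNA. Ratios of at least 2-fold on this scale were found at 10.3% of sites against control siRNA and at 16.3% against no siRNA.

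The 5 loci with proximal shares most like those of the LEPR pair, by Euclidean distance over the 4 libraries, lay 29.2 to 37.2 points away. That distance includes the CF Im 68 share for which the LEPR pair was chosen, so nothing is read from its size. The nearest lay on chromosome 9, minus strand (35658874 with 35657747), and had 43.8% after CF Im 68 siRNA, 63.6% with CstF-64 siRNA, 85.9% after control siRNA and 80.9% without siRNA. Next came chromosome 9, plus strand (88641877 with 88643430), with 48.5%, 81.2%, 85.7% and 89.6% in the same order. A pair of chromosome 16, plus strand (3018381 with 3023484), had 42.2%, 48.0%, 79.1% and 81.9% in that order, and so was low with CstF-64 siRNA as well. A pair of chromosome 14, minus strand (102551279 with 102547931), had 44.2%, 89.6%, 96.0% and 96.2%. Of the 5, only a chromosome 1, plus strand, pair (151530457 with 151532893) went below the 16.0% of LEPR after CF Im 68 siRNA, with 7.44%, and it had 100% in each other library.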

How the data were processed

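For each library the authors deposited raw counts, 1 row per stranded nucleotide at which reads ended, without normalization. The build was hg19 (GRCh37) by the submitters' processing notes, and positions are counted from 1. Aligner, filters and treatment of PCR copies are not given in the sources used here, and the labels name no molecular identifiers. Per the labels' protocols, reverse transcription started from an anchored oligo-dT primer at the poly(A) tail.

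Positions were clustered strand by strand around the best-covered position (4 libraries summed) with a reach of 25 nt, in descending order of reads. Clusters on chromosomes 1 to 22 and X with a mean of at least 1 RPM were kept as sites. The most used site took all sites within 10 kb as a locus. Sites with at least 5% of the mean RPM summed over the locus were kept. The 2 most used formed a pair, tested at 50 reads or more in every library. Log2 ratios used a pseudocount of 1 RPM, and 2-fold counts refer to that scale. The pair test was checked on simulated data. Python 3.11.15, scipy 1.17.1, statsmodels 0.14.6, edgeR 4.0.16 and DESeq2 1.42.0 (scaling alternatives only) were used.

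LEPR, LEPROT, the sites and the rules were chosen with earlier results of these data known. All sites of at least 1 RPM in the window were named, and the 5 loci most alike. No annotation of hg19 was used here, so exons, other leptin pathway genes, the siRNA targets and marker genes of HEK293 were not analysed. The sequence around the sites was not used here.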

Additional observations from a re-analysis of the deposited data

How the results depend on the processing

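Of 69 alternative values over 15 results, 56 were counted as unchanged. For tested results this meant the same direction and the same side of the threshold. Other measured values had to keep their direction and lie within the counting interval. Counts of called loci had to stay within a fixed factor of the reported count. Cluster widths of 10 and 50 nt could not change shares within the LEPR pair. All reads of either site lay within 5 nt of its leading position, and these unchanged values are among the 56. The fall in proximal LEPR share after CF Im 68 siRNA was -71.0 to -68.2 points without single reads, after thinning or against no siRNA. With each end position counted once it was -21.4 points, from 6 or more positions per library, too few to test the pair for CstF-64 siRNA or the controls. Without positions of a single read, control against no siRNA at LEPR was -0.73 points, a change of sign near 0. The adjusted p for CstF-64 siRNA at LEPR was 0.121 to 0.311 by Fisher's exact test under all settings that could be tested. Against no siRNA in place of control siRNA, the log2 ratio of totals was 1.63 for LEPR and 0.56 for LEPROT after CF Im 68 siRNA, and 0.23 for LEPR, a change of sign, and -0.15 for LEPROT after CstF-64 siRNA. At 20 points instead of 10, loci with a higher and lower share numbered 636 and 49 for CF Im 68, 148 and 71 for CstF-64 and 129 and 114 for control against no siRNA. With at least 100 pair reads, the lower count for CF Im 68 siRNA was 132. With TMM factors LEPR had a log2 ratio of -0.33 for CstF-64 over control siRNA. No paired analysis was possible because each group had 1 library. The 57 pair reads after CstF-64 siRNA limit what can be detected there.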
